A study of Mus musculus with 15 samples.

Results

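RAW264.7 cells, an established mouse macrophage-like line, were compared 24 h after 10 µg and 24 h after 1 µg of LCCL, a peptide with an LCCL core motif. The comparison was chosen by dose and time label alone. It covers 6 of the 15 RNA-seq libraries of the series, 3 at each dose (n = 3 throughout). All cells were wild type; the other 9 libraries were 3 from untreated cells and 3 from each dose after 6 h. By its title, the series asks whether such a peptide could serve as a drug acting on M1 macrophages, the inflammatory state set off by microbial products. The doses are labelled without a volume, a separate vehicle group is not among the labels, and the untreated cells carry no harvest time. Both groups here received peptide and were harvested at the same time, so each difference is between them and not against the untreated cells. The gene filter and the spread behind each p-value, however, came from all 15 libraries fitted together.

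LCCL domains are small protein modules first recognised in horseshoe crab factor C, which senses bacterial lipopolysaccharide, and in cochlin, a protein of the inner ear and of lymphoid follicles. Macrophages take up particles and dead cells, digest them in lysosomes acidified by a proton pump, and switch between dividing, inflammatory and resolving states. Toll-like receptors drive NF-kB and interferon-regulated transcription in them, and the growth factor receptor encoded by Csf1r maintains them.

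Libraries of the 2 groups held 19282074 to 22431771 counts at 1 µg and 19085148 to 20154840 at 10 µg, and mitochondrially encoded transcripts took 6.27% to 6.55% and 6.06% to 6.23% of them. Summed over 8 macrophage markers, the level was 11959 to 14176 CPM (counts scaled to TMM-adjusted library size) at 1 µg and 9847 to 10880 CPM at 10 µg, and Cd68, Csf1r, Lyz2 and Spi1 were detected in all 6 libraries. Of 6 epithelial markers none had a count in these 6 libraries. Sums over 8 fibroblast, 5 B cell and 7 dendritic cell markers stayed at or below 1.94, 0.837 and 2.74 CPM. Neutrophil markers summed to 20.7 to 27.0 CPM at 1 µg and 31.8 to 36.8 CPM at 10 µg, nearly all from Csf3r, and T cell markers to 7.09 to 7.73 and 8.19 to 9.76 CPM, nearly all from Lck. In bulk RNA, fewer cells of a type and less RNA per cell cannot be told apart. Because the labels do not say whether replicates were separate cultures, the spread behind each p-value may be technical only.

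One library stood apart. In replicate 1 at 1 µg, 60 of 10208 genes at 5 CPM or more were over 1.5-fold above both other libraries of the group, and 24 were as far below. The other 5 libraries had 4 to 10 such genes above and 4 to 16 below. Values without that library are given for part of the results only, so a missing one does not show that a result held.

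Of 12401 genes with enough counts, 4383 differed between the doses at 24 h (35.3%; adjusted p under 0.05, edgeR's quasi-likelihood test with Benjamini-Hochberg adjustment), 1988 higher at 10 µg (16%) and 2395 lower (19.3%). Most differences were small: the median size among called genes was 0.33 on the log2 scale, and 161 called genes were at least 2-fold higher and 96 at least 2-fold lower. "Rose", "fell" and "called" below refer to 10 µg relative to 1 µg at 24 h and to this threshold, and differences are log2 values ± SE. With only the 6 libraries at 24 h fitted, 3259 of 12158 tested genes were called. In the fit of all 15 libraries the same contrast at 6 h called 291 genes (2.35%). That count was 111 to 163 when 1 library was left out and 1044 when only the 6 h libraries were fitted. For 1424 of the 1988 higher genes the 1 µg mean lay between untreated cells and 10 µg, and so it did for 1790 of the 2395 lower genes. Because the untreated cells carry no harvest time, this order is not a dose series. The median difference over all tested genes was -0.01.

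**Figure D1:**
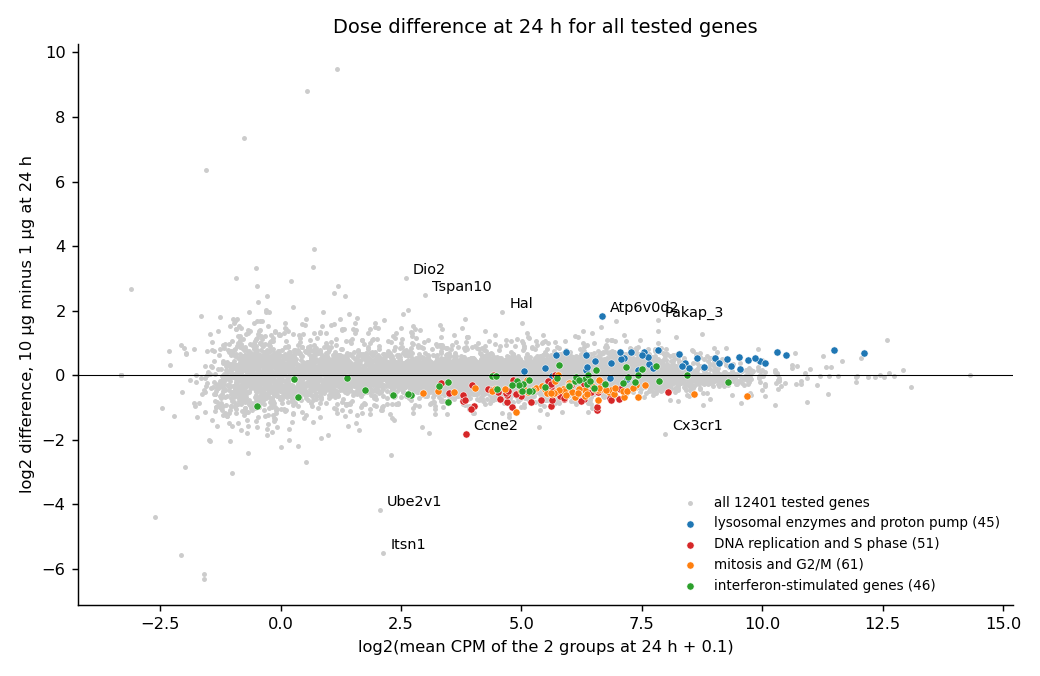
Each point is 1 of 12401 tested genes: the x axis is log2 of the mean CPM of the 6 libraries (plus 0.1) and the y axis the log2 difference between 10 µg and 1 µg at 24 h. Lysosomal genes (blue) lie mostly above 0 and DNA replication (red) and mitosis genes (orange) mostly below it, interferon-stimulated genes are green, and the grey points scatter most widely at low CPM.

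Among the genes with the largest rises, Atp6v0d2, a proton pump subunit prominent in osteoclasts, stood at 43.6, 42.0 and 49.1 CPM in the 1 µg libraries and at 152.9, 168 and 159 CPM in the 10 µg libraries. The groups were far apart, and the difference was 1.83 ± 0.06 (adjusted p = 1.40e-17). Untreated cells were at 44.4 CPM, as low as the 1 µg libraries. Pakap_3, a symbol with a numbered suffix from the locus of an A-kinase anchor, was at 107, 104 and 111 CPM against 331, 349 and 362 CPM (1.69 ± 0.05). In the reference annotation its exons overlap those of Akap2 and Palm2 on the same strand, so its reads may be shared with them.

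Hal, whose enzyme starts the breakdown of histidine, rose from 9.81, 8.38 and 11.3 CPM to 35.6, 36.6 and 42.8 CPM (1.97 ± 0.11, adjusted p = 1.05e-12). Il7r, the interleukin 7 receptor chain, was at 71.6, 53.4 and 54.8 CPM and at 183, 195 and 191 CPM (1.66 ± 0.09). Dio2, the deiodinase that makes active thyroid hormone, went from 2.03, 0.691 and 1.18 CPM to 8.91, 10.7 and 12.1 CPM, the largest rise under the naming rule (3.02 ± 0.25, adjusted p = 2.35e-09). In each of these genes every 10 µg library lay above every 1 µg library.

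Further large rises were Tspan10 (2.50 ± 0.21), a tetraspanin; Sdk2 (2.03 ± 0.17) and Celsr1 (1.72 ± 0.17), which encode cell adhesion proteins; and Hpse (1.73 ± 0.12), the heparanase that cuts heparan sulphate. Ccbe1, a factor in lymphatic growth, rose by 1.61 ± 0.09, and Rilpl2, a relative of a lysosomal transport adaptor, by 1.499 ± 0.086. Tgm2, a transglutaminase used as a marker of alternative activation, rose by 1.55 ± 0.16 from 5.02 ± 0.65 to 14.7 ± 3.9 CPM (SD), close to the 14.4 CPM of untreated cells. Creg2, the protease-like gene Prss46 and the integrin gene Itgad rose by 1.60 ± 0.27, 1.52 ± 0.17 and 1.49 ± 0.30. Gpnmb, a lysosome-associated glycoprotein gene named after its values were seen, was at 3990, 3768 and 3980 CPM against 7830, 8335 and 9025 CPM (1.10 ± 0.05).

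The largest falls included a chemokine receptor, a cyclin and a scaffold gene. Itsn1, an endocytic scaffold, had 227, 170 and 158 counts at 1 µg and 2, 9 and 0 counts at 10 µg. No 10 µg library came near the lowest 1 µg library, and the difference was -5.50 ± 0.71 (adjusted p = 0.000108). At 6 h the 10 µg libraries of Itsn1 were scattered, at 4.73, 11.3 and 15.3 CPM. How reads were assigned to Itsn1 is not known from the sources, and whether that assignment differed between libraries was not tested. Cx3cr1, the fractalkine receptor of resident macrophages, fell from 489, 368 and 325 CPM to 128, 101 and 107 CPM (-1.81 ± 0.13, adjusted p = 7.51e-07). Replicate 1 at 1 µg was the highest library, and without it the difference was -1.63. Ccne2, the cyclin E2 gene that acts at the entry to S phase, was at 27.4, 22.02 and 17.04 CPM against 7.76, 5.09 and 5.92 CPM (-1.82 ± 0.17).

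Trib1, a pseudokinase that controls C/EBP proteins, fell by 1.81 ± 0.17 on the log2 scale, and C5ar1, the receptor for the complement fragment C5a, by 1.21 ± 0.16. Alox5, which encodes 5-lipoxygenase, the first enzyme of leukotriene synthesis, was at 74.4, 57.8 and 60.9 CPM and at 30.9, 27.0 and 26.03 CPM (-1.20 ± 0.08, adjusted p = 3.24e-11). Ighm, an immunoglobulin heavy chain gene, fell by 1.62 ± 0.18, the guanine nucleotide exchange factor gene Fgd2 by 1.28 ± 0.08, the activating receptor gene Cd300e by 1.21 ± 0.13, the kinase gene Dmpk by 1.21 ± 0.11 and Tex21 by 1.19 ± 0.17.

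For 4 of the 15 largest falls, the size depended on the library that stood apart or the call on the shared spread. Slc5a3, the myo-inositol transporter gene, was at 112, 40.1 and 34.3 CPM against 25.0, 20.1 and 16.3 CPM, and its difference went from -1.61 to -0.86 without replicate 1 at 1 µg. Ranbp3l went from -2.49 to -1.38 and Serinc2 from -1.32 to -0.78 without it, with adjusted p = 3.54e-06 and 0.000618. Ube2v1, a ubiquitin-conjugating enzyme variant, was at 14.3, 6.74 and 2.02 CPM against 0.767, 0 and 0.486 CPM (-4.17 ± 1.08), and its exons overlap those of Gm20431 on the same strand. When only the 6 libraries were fitted, Slc5a3, Ranbp3l and Ube2v1 had adjusted p = 0.142, 0.12 and 0.0733.

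**Figure D2:**
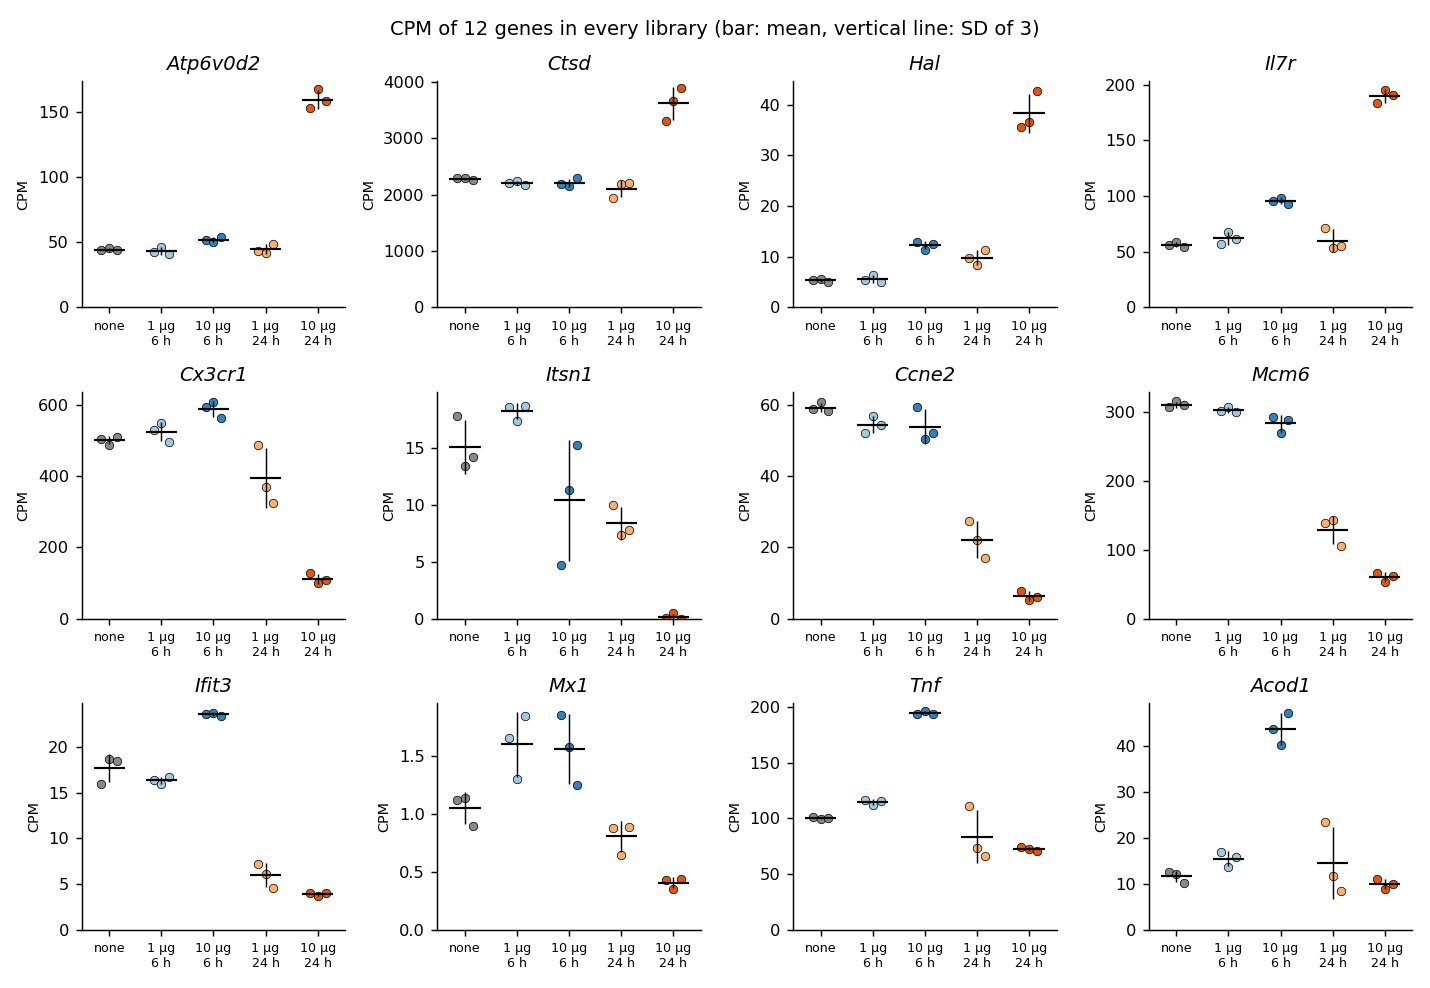
CPM of 12 genes in each of the 15 libraries (points), with the mean (bar) and SD (vertical line) of each group of 3; the y axes start at 0. Atp6v0d2, Ctsd, Hal and Il7r are highest at 10 µg and 24 h, Cx3cr1, Itsn1, Ccne2 and Mcm6 lowest there, and Ifit3, Tnf and Acod1 peak at 10 µg and 6 h.

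Lysosomal genes rose as a group. Of 45 tested genes for lysosomal enzymes, membrane proteins and the proton pump, 41 rose and 0 fell, against 16% of all tested genes rising, with a median difference of 0.47 against -0.01 over all genes. Summed over the list, the level was 17342 to 19829 CPM at 1 µg, 25595 to 28837 CPM at 10 µg and 18902 to 19164 CPM in untreated cells. The 3 libraries at 10 µg were thus the highest of the 3 groups. Without replicate 1 at 1 µg, 40 members rose and 1 fell. The list, like all gene lists here, was chosen with earlier results of these data known.

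Proteases led by Ctsd, the acid protease cathepsin D, were among them: Ctsd was at 1933, 2186 and 2210 CPM against 3302, 3661 and 3893 CPM (0.78 ± 0.06, adjusted p = 1.88e-10). Cathepsins B, S, Z and L (Ctsb, Ctss, Ctsz, Ctsl) rose by 0.69, 0.47, 0.55 and 0.38, while Ctsc, cathepsin C, gave -0.04 and was not called. Gla, the alpha-galactosidase lost in Fabry disease, was at 96.6, 99.1 and 105 CPM against 152, 172 and 170 CPM (0.72 ± 0.05). Other glycan- and lipid-degrading enzymes rose by 0.72 (Naglu), 0.52 (Hexa) and 0.51 (Gaa, which breaks down glycogen). Psap, the precursor of the saposins that help these enzymes act on lipids, rose by 0.72 ± 0.06, Npc1, the cholesterol exporter of the lysosome, by 0.61, and Grn, progranulin, by 0.61.

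Proton pump subunits of both the membrane and the cytosolic part rose, among them Atp6v1c1 (0.78 ± 0.06), Atp6v1d (0.72), Atp6v1g1 (0.72), Atp6v1h (0.63), Atp6v1a (0.54) and Atp6v0a1 (0.55). The 4 members that were not called were Man2b1, Tfe3, Ctsc and Tfeb. Tfeb and Tfe3, transcription factors known to bind E-boxes of lysosomal genes, gave 0.13 and -0.08. At 6 h only 2 of the 45 genes were called (Atp6v1d and Atp6v0d2), and for 35 the dose difference at 24 h exceeded that at 6 h by the interaction test, against 7.58% of all genes.

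Promoters of lysosomal genes often carry the E-box CACGTG, and the windows below show it in 4 members that rose. They were taken as the called members of smallest p whose promoter held the motif ahead of the start site. Promoters on a single chromosome were left out of this choice, whatever their p. Sequences are from RefSeq on build GRCm38.p6, given 5′ to 3′ on the gene's own strand with up to 30 bases on each side, and the capitals mark the motif. Gla lies at chrX:134601164-134601229 (minus strand), Ctsd at chr7:142387890-142387955 (minus), Naglu at chr11:101069991-101070056 (plus) and Gaa at chr11:119267793-119267858 (plus).
Gla: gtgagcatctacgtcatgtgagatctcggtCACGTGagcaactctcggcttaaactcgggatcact
Ctsd: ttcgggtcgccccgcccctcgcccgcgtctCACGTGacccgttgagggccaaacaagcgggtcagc
Naglu: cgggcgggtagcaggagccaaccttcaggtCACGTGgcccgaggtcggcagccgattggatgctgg
Gaa: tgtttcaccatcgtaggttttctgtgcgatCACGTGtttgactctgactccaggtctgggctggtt
The E-box, which reads the same on both strands, was in 13 of 35 lysosomal promoters (37.1%) of 300 bases, in 11.6% of the 9623 tested genes with a promoter, in 16.6% of those that rose and in 10.5% of those that fell. The longer form TCACGTG, added after the data were seen and overlapping the E-box, was in 12 of the 35 (34.3%) and in 6.86% of all, searched on both strands. A match is a description of these letters, not of binding.

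Autophagy genes moved the same way by less: 15 of 27 rose and 1 fell (Atg9a, -0.16), with a median of 0.18. Of all tested genes 16% rose. Sqstm1, the cargo receptor p62, was at 1048, 856 and 973 CPM against 1475, 1692 and 1712 CPM (0.76 ± 0.06, adjusted p = 2.12e-09). Optn, another cargo receptor, rose by 1.73 ± 0.23 from about 1 CPM, and the membrane-conjugated proteins Map1lc3a, Map1lc3b and Gabarap rose by 0.64, 0.40 and 0.35. The kinase genes Ulk1 and Ulk2, which start the process, gave 0.14 and 0.00 and were not called.

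Genes of the cell cycle fell as a group. Of 51 DNA replication and S phase genes 47 fell and 0 rose (median -0.60), and of 61 mitosis and G2/M genes 58 fell and 0 rose (median -0.46), against 19.3% of all tested genes falling. Both sums were lowest at 10 µg: 2007 to 2338 CPM for replication against 2969 to 3451 CPM at 1 µg and 5942 to 5987 CPM in untreated cells, and 4249 to 4890 CPM for mitosis against 5990 to 6880 and 8841 to 9080 CPM. For 49 of 51 and 59 of 61 genes the means fell in the order untreated, 1 µg, 10 µg. The untreated cells carry no harvest time, so the step from them to 1 µg cannot be assigned to dose or to time. At 1 µg and 6 h the sums were 5720 to 5890 CPM for replication and 8656 to 8814 CPM for mitosis. Without replicate 1 at 1 µg, 47 and 58 fell. Both lists, too, were chosen with earlier results of these data known.

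Helicase subunits that open replication origins fell, led by Mcm6, which was at 139, 143 and 106 CPM against 66.7, 53 and 62.6 CPM (-1.09 ± 0.10, adjusted p = 4.84e-07). Mcm7, Mcm4, Mcm5, Mcm3 and Mcm2 gave -0.83, -0.80, -0.76, -0.70 and -0.53. Cdc6, which loads them, fell by 1.06 ± 0.09, Uhrf1, a reader of hemimethylated DNA, by 1.00 ± 0.07 and Tk1, thymidine kinase, by 0.95 ± 0.07. Nucleotide synthesis genes fell too: Tyms by 0.77 and both ribonucleotide reductase subunits, Rrm1 and Rrm2, by 0.74 and 0.73. Pcna, the sliding clamp, fell by 0.43. The members that were not called were Rpa3, Gins4, Orc1 and Pold3, at -0.26, -0.14, 0.00 and 0.01.

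In mitosis, Mybl2, the B-Myb factor of late cell-cycle genes, fell by 1.13 ± 0.10. Aurkb, the kinase of the chromosome passenger complex, was at 73.0, 77.7 and 70.2 CPM against 49.4, 45.6 and 49.97 CPM (-0.61 ± 0.05, adjusted p = 1.92e-09). Top2a, Ccna2, Mki67, Ccnb1, Cdk1 and Plk1 gave -0.57, -0.68, -0.64, -0.56, -0.52 and -0.45. Only Spc25, Bub3 and Plk4 were not called. Of 21 genes of G1 control 17 fell and 0 rose: Ccnd1, cyclin D1, was at 584, 666 and 571 CPM against 393, 340 and 359 CPM (-0.74 ± 0.06), Ccnd3 gave -0.61 and E2f2 -0.80. The list also holds brakes on the cycle, of which Rbl1 fell by 0.59, the inhibitor Cdkn2c by 0.49 and Cdkn1a, the inhibitor p21, by 0.38 ± 0.06. Cdkn1b (-0.05) and Rb1 (-0.17), brakes too, were not called, nor were Ccnd2 (0.25) and Cdk4 (0.05).

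At 6 h none of the replication genes and 2 of the mitosis genes were called, with medians of -0.08 and -0.11. By the interaction test the difference at 24 h lay below that at 6 h for 41 of 51 and 44 of 61 genes, against 11% of all tested genes.

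**Figure D3:**
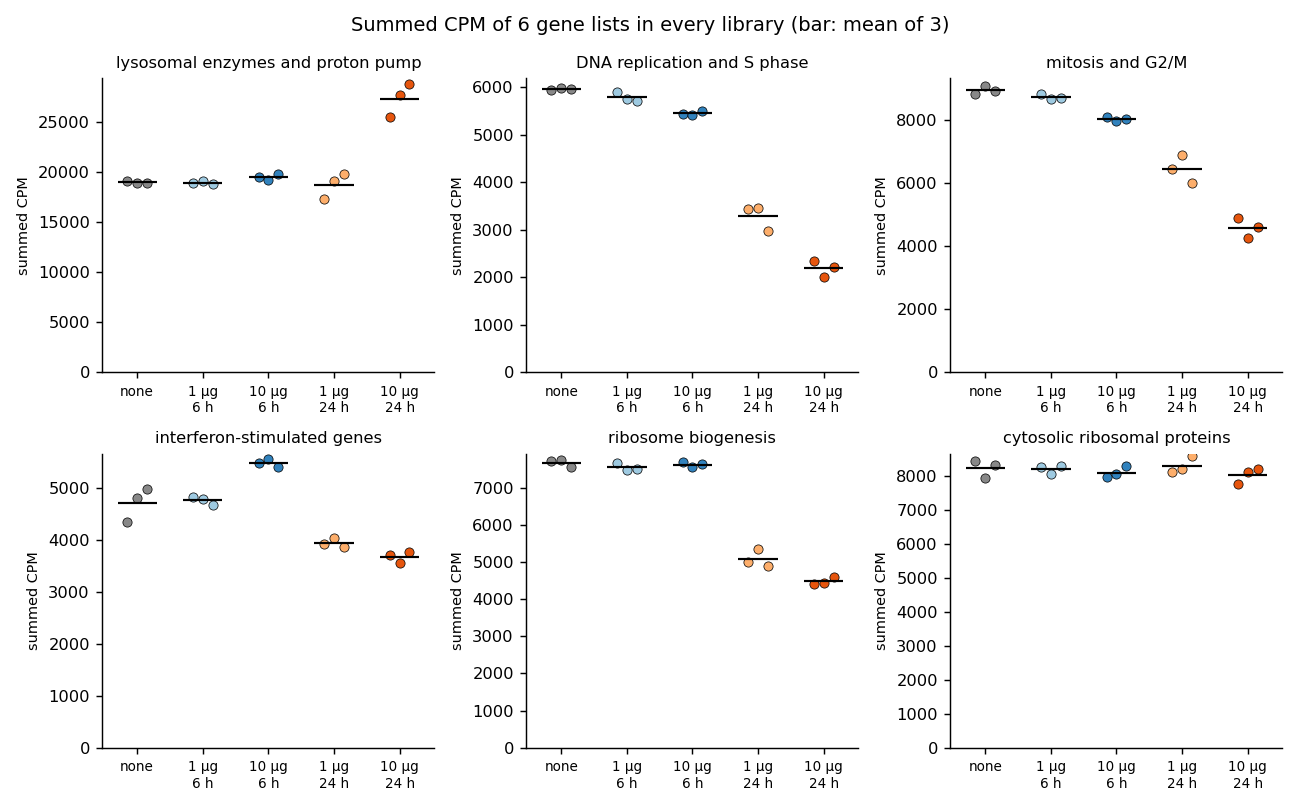
Summed CPM of 6 gene lists (y axis, from 0) in each of the 15 libraries (points, bar at the mean of 3). Lysosomal genes are highest at 10 µg and 24 h (25595 to 28837 CPM), replication and mitosis genes step down from 6 h to 24 h and again from 1 µg to 10 µg, and cytosolic ribosomal proteins stay between 7780 and 8610 CPM in all of the 24 h libraries.

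For 2 known cell-cycle elements, 5 promoter windows chosen as above are shown. The cell-cycle homology region TTTGAA is marked in Top2a (chr11:99024190-99024242, minus strand), Mki67 (chr7:135716442-135716507, minus) and Ncapd2 (chr6:125191674-125191739, minus). The E2F element TTTCCCGC is marked in Cdc6 (chr11:98907983-98908050, plus) and Mcm7 (chr5:138172011-138172078, minus). Either strand of the motif may appear, and the Top2a window ends at the start site. Only the copy nearest ahead of the start site is in capitals, and the Mki67 window holds another TTTGAA in lower case.
Top2a: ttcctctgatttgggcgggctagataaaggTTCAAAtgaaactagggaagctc
Mki67: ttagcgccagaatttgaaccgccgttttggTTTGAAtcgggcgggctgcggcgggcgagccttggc
Ncapd2: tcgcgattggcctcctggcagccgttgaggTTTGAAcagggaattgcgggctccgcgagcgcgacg
Cdc6: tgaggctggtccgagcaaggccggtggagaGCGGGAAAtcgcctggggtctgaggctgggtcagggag
Mcm7: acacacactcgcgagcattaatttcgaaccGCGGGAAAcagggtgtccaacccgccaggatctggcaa
TTTGAA was in 36 of 51 mitosis promoters (70.6%) and in 14.9% of all tested genes with a promoter, 17.9% of those that fell and 12.2% of those that rose. In replication promoters it was in 6 of 41 (14.6%), near the share of all. TTTCCCGC was in 7 of 41 replication promoters (17.1%), in 2 of 51 mitosis promoters (3.92%) and in 2.39%, 4.46% and 1.14% of the same 3 sets. The CCAAT box, searched on both strands, was in 37 of the 51 mitosis promoters (72.5%) and in 43.5% of all. Over the other lists searched, its share ran from 18.2% (autophagy) to 94.1% (cholesterol synthesis), with 61.0% for replication.

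Growth-related genes fell by less. Of 53 ribosome biogenesis genes 29 fell and 0 rose (median -0.18), beside 19.3% of all tested genes falling and 16% rising. Dkc1, the pseudouridine synthase of small nucleolar RNPs, was at 67.0, 71.7 and 65.3 CPM against 48.0, 47.4 and 48.1 CPM (-0.51 ± 0.05, adjusted p = 2.02e-08), and Nop56, Nop58 and Nolc1 gave -0.46, -0.34 and -0.43. Of 37 SR and hnRNP splicing factors 21 fell and 0 rose (median -0.16), with Hnrnpab at -0.41. Of 78 cytosolic ribosomal protein genes, 3 fell (Rpl37, Rps19 and Rps18) and 0 rose, a share below that of all tested genes. Leaving out 1 library gave 4 to 6 that fell, and over all alternatives 1 to 6 did. The calls of Rps19 and Rps18 were lost with only the 6 libraries fitted (adjusted p = 0.0506 and 0.1247), without replicate 1 at 1 µg or replicate 3 at 10 µg for Rps19, and without replicate 2 at 1 µg or replicate 1 or 2 at 10 µg for Rps18. The call of Rps18 was also lost with upper-quartile scaling and with DESeq2 (adjusted p = 0.0693 and 0.0518). For the list as a whole, the sum was 8122 to 8610 CPM at 1 µg and 7780 to 8203 CPM at 10 µg. Of 18 serine and folate one-carbon genes 9 fell and 2 rose, and of 10 pentose phosphate genes 6 fell and 0 rose: G6pdx, which opens the pathway, and Pgd both gave -0.41. The medians were -0.28 and -0.20.

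Interferon-stimulated genes were mostly lower at 10 µg after 24 h, although at 6 h they had been higher. Of 46 tested members 28 fell and 5 rose at 24 h (median -0.21), beside 19.3% of all tested genes falling and 16% rising. At 6 h, in contrast, 19 were called higher at 10 µg and 0 lower (median 0.24), against 1.85% of all genes called higher at 6 h. Ifit3 was at 7.24, 6.13 and 4.58 CPM at 1 µg and 3.98, 3.68 and 3.98 CPM at 10 µg after 24 h. All 10 µg libraries lay below all 1 µg libraries (-0.63 ± 0.14, adjusted p = 0.000641), while the 6 h difference was 0.53 (adjusted p = 0.00402).

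The pattern took in sensors and effectors. Dhx58, an RNA sensor, was at 40.4, 46.3 and 43.8 CPM against 33.1, 29.8 and 30.8 CPM (-0.48 ± 0.06, adjusted p = 8.78e-07). Eif2ak2, the kinase PKR, gave -0.40, Ifit2 -0.50, Mx2 -0.61 and Oasl2 -0.43. Cxcl10, an interferon-induced chemokine, was at 4.24, 2.59 and 2.86 CPM against 1.68, 2.02 and 1.36 CPM (-0.94 ± 0.18, adjusted p = 0.000232). The 5 that rose were Usp18, a brake on interferon signalling (0.32 ± 0.06), Tor3a, Oas1a, Slfn2 and Slfn5. Of the members, 11 were called higher at 6 h and lower at 24 h, and for 31 of 46 the dose difference at 24 h lay below that at 6 h by the interaction test. In 36 of 46 the means fell in the order untreated, 1 µg at 24 h, 10 µg at 24 h. The untreated cells carry no harvest time, so the first of these steps cannot be assigned to dose or to time. When only the 6 libraries were fitted, 18 members fell at 24 h.

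The interferon-stimulated response element, searched as TTTCNNTTT on both strands, is shown in 3 called members chosen as above. Trim30a (chr7:104465194-104465259, minus strand) and Ifit3 (chr19:34583377-34583445, plus) fell, and Oas1a (chr5:120907526-120907568, minus) rose by 0.25 ± 0.06. The capitals mark the element, and a window that reached the start site ends there.
Trim30a: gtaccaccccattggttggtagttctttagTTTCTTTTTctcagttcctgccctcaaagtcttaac
Ifit3: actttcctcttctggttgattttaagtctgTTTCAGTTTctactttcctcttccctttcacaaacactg
Oas1a: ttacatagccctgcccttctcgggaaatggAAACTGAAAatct
The element was in 22 of 34 promoters of these genes (64.7%) and in 9.8% of all tested genes with a promoter, 11.3% of those that rose and 9.55% of those that fell. It is thus present in members that moved in opposite directions.

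**Figure D4:**
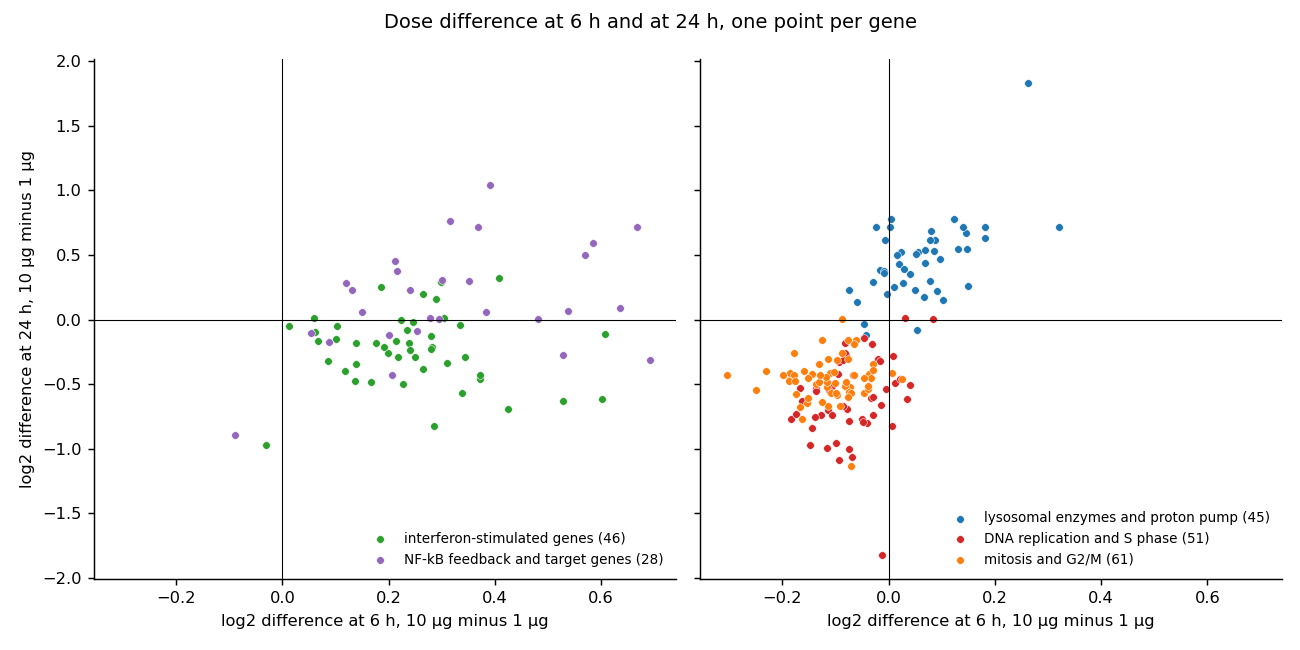
Log2 difference between 10 µg and 1 µg at 6 h (x axis) and 24 h (y axis), 1 point per gene, for 2 signalling lists (left) and 3 lysosomal and cell-cycle lists (right). Interferon-stimulated genes lie mostly right of 0 and below 0, whereas the lysosomal and cell-cycle genes spread along the y axis with x values near 0.

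NF-kB targets rose in part. At 6 h 14 of 28 were called higher at 10 µg and 0 lower, against 1.85% of all genes called higher. At 24 h 13 rose and 3 fell (median 0.08), against 16% of all tested genes rising and 19.3% falling. Cd83, a maturation marker, was at 67.3, 65.0 and 68.8 CPM against 94.0, 106 and 103 CPM (0.59 ± 0.06), much as at 6 h (0.58). Gadd45b rose by 1.04 ± 0.10, the deubiquitinase gene Tnfaip3, a brake on NF-kB, by 0.50 and the survival gene Bcl2a1b by 0.72 ± 0.10. Nfkbia and Nfkbiz, early inhibitors, were called at 6 h (0.20 and 0.63) and gave -0.12 and 0.09 at 24 h, not called. Those that fell were Tnip3 (-0.89), Nfkbid (-0.43) and Rel (-0.17). Without replicate 3 at 1 µg, 6 fell.

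Of 16 core genes of macrophage activation 10 could be tested, and 3 of them were called at 24 h (Nos2, Cxcl10 and Cd40), beside 35.3% of all tested genes. Tnf, the inflammatory cytokine, was at 111, 73.2 and 66.3 CPM at 1 µg and at 74.6, 72.1 and 71.0 CPM at 10 µg (-0.20 ± 0.14, adjusted p = 0.321). The 10 µg libraries lay within the 1 µg range, and without replicate 1 at 1 µg the difference was 0.05. Acod1, whose enzyme makes itaconate, was at 23.4, 11.7 and 8.37 CPM against 11.02, 8.88 and 10.1 CPM (-0.54 ± 0.31, adjusted p = 0.207). At 6 h both had been called higher at 10 µg, by 0.76 and 1.5. Without replicate 3 at 1 µg both fell at 24 h, Tnf by 0.34 (adjusted p = 0.0454) and Acod1 by 0.81 (adjusted p = 0.0258). Without replicate 1 at 1 µg Acod1 gave -0.02 and was not called.

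Cd40, a co-stimulatory receptor, rose by 0.72 ± 0.20 from 4.43 ± 0.97 to 7.28 ± 1.37 CPM (SD), a call lost without replicate 2 of either dose (adjusted p = 0.0511 and 0.0528). Nos2, the inducible nitric oxide synthase, rose by 1.74 ± 0.58 (adjusted p = 0.0202) on 13 counts in all against 41, and its call was lost with DESeq2 and without replicate 3 at 1 µg or replicate 1 or 2 at 10 µg (adjusted p = 0.053 to 0.0889). Ptgs2, Cd86, Arg1, Mrc1 and Il1rn gave -0.67, 0.65, -0.42, -0.38 and 0.30 and were not called. Cd86 passed with only the 6 libraries fitted, with upper-quartile scaling and with limma-voom (adjusted p = 0.0236, 0.0465 and 0.0253). Il1rn passed with limma-voom (adjusted p = 0.0478). Without replicate 1 at 1 µg, Ptgs2 gave 0.25 and was not called, and Il1rn, the interleukin 1 receptor antagonist, rose by 0.56 (adjusted p = 7.37e-05). Il1b had 10, 1 and 2 counts at 1 µg and 3, 0 and 1 at 10 µg. Il6 had 4, 0 and 0 counts at 1 µg and none at 10 µg, Il10 had 2 in all and none, and Il12b, Retnla and Chil3 had none in either group. These 6 were too low to test. Among M1 markers 10 were tested: Nos2, Cd40 and Fcgr1 rose, and Cxcl10 and the factor gene Irf5 fell, beside 16% of all tested genes rising and 19.3% falling. Of 10 M2 markers 2 rose (Tgm2 and Clec7a) and 0 fell, and the rising share is close to that of all genes. Leaving out replicate 2 at 10 µg left 1 M1 marker that rose, leaving out replicate 3 at 1 µg gave 4 that fell, and leaving out replicate 1 at 1 µg gave 4 M2 markers that rose.

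Surface receptors and lineage genes moved in both directions. Csf1r, the growth factor receptor, was at 1560, 1213 and 1143 CPM against 883, 786 and 853 CPM (-0.63 ± 0.08, adjusted p = 6.58e-06), and the lineage factor genes Runx1 and Cebpa fell by 0.50 and 0.23. Spi1, encoding PU.1, gave 0.02 and was not called. Of 18 lineage genes 5 rose and 7 fell, beside 16% of all tested genes rising and 19.3% falling. With only the 6 libraries fitted or without replicate 2 at 1 µg, 3 lineage genes rose. Itgam (CD11b) fell by 0.40 ± 0.05 while Itgax (CD11c) rose by 0.90 ± 0.08, from 22.3, 24.6 and 22.4 CPM to 44.0, 40.3 and 44.9 CPM. Cd68, a lysosomal macrophage marker, rose by 0.47 ± 0.05. Of 8 chemoattractant receptors 4 rose (Ccrl2, Cxcr4, Ccr2 and C3ar1) and 3 fell (Cx3cr1, C5ar1 and Gpr84).

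Of 21 Toll-like receptors and adaptors 9 fell and 2 rose, beside 19.3% of all tested genes falling and 16% rising. Cd14, the lipopolysaccharide co-receptor, was at 1676, 1458 and 1303 CPM against 1087, 1053 and 1138 CPM (-0.44 ± 0.06), and Tlr2, Tlr4, Tlr7, Tlr8 and Tlr9 gave -0.48, -0.26, -0.33, -0.85 and -0.35. The 2 that rose were the adaptor Ticam2 (0.73) and the kinase Irak2 (0.45). Without replicate 1 at 1 µg, 7 of this list fell and 3 rose. Of 14 Fc and scavenger receptors 6 rose and 1 fell (Scarb1, -0.38): Fcgr1 by 0.41, Fcgr3 by 0.26 and Fcgr4 by 0.51 were among those that rose. Clec4e, which senses mycobacterial glycolipid, rose by 0.76 ± 0.12, and Cd274, the checkpoint ligand PD-L1, was at 27.1, 18.4 and 18.9 CPM against 42.4, 52.2 and 51.3 CPM (1.18 ± 0.12, adjusted p = 5.06e-07).

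RAW264.7 cells can be driven towards osteoclasts. Of 17 genes of that programme tested, 8 rose and 6 fell, beside 16% of all tested genes rising and 19.3% falling. Those that rose were Atp6v0d2, Clcn7 (0.79 ± 0.06), Ctsk, cathepsin K (0.59 ± 0.05), Tcirg1 (0.53), Acp5 (0.48), Src (0.81 ± 0.07), Mmp9 (0.99) and Ostm1 (0.33). Those that fell were the fusion gene Ocstamp (-2.69 ± 0.29, from 2.61, 2.38 and 2.02 CPM to 0.623, 0.252 and 0.194 CPM), Fos (-0.86), the receptor RANK gene Tnfrsf11a (-0.59), Car2 (-0.40), the master regulator Nfatc1 (-0.39) and Jdp2 (-0.22). Nfatc1 and Jdp2 had been called higher at 10 µg at 6 h.

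The counts in this paragraph stand beside 16% of all tested genes rising and 19.3% falling. Of 17 iron genes 8 rose and 2 fell. Fth1, the ferritin heavy chain, was at 3610, 3394 and 3444 CPM against 4767, 5136 and 5196 CPM (0.53 ± 0.05, adjusted p = 1.19e-08). Slc11a2, the iron transporter DMT1, rose by 0.70 and ceruloplasmin, Cp, by 1.13. Of 22 genes of the ATF4 amino acid response 12 rose and 1 fell (Psat1, -0.45). Atf4 itself rose by 0.26, Trib3 by 0.84 and Sesn2 by 0.38. Without replicate 1 at 1 µg, 9 members rose and 4 fell. Of 25 genes of fatty acid synthesis and lipid storage 8 rose and 10 fell. Among them Plin2 rose by 0.59 ± 0.05, Plin3 by 0.47, Fabp4 by 1.30 and Fabp5 by 0.69, while Fasn fell by 0.48, Elovl6 by 0.53 and Acaca by 0.27. Lpl, lipoprotein lipase, fell from 2772, 2496 and 2212 CPM to 1432, 1403 and 1379 CPM (-0.83 ± 0.06), and the cholesterol pump gene Abca1 rose by 0.60 ± 0.08. Of 24 cholesterol synthesis genes 9 fell and 0 rose, beside 19.3% of all tested genes falling. The count was 5, near that share, when only the 6 libraries were fitted and also 5 without replicate 2 of either dose.

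**Figure D5:**
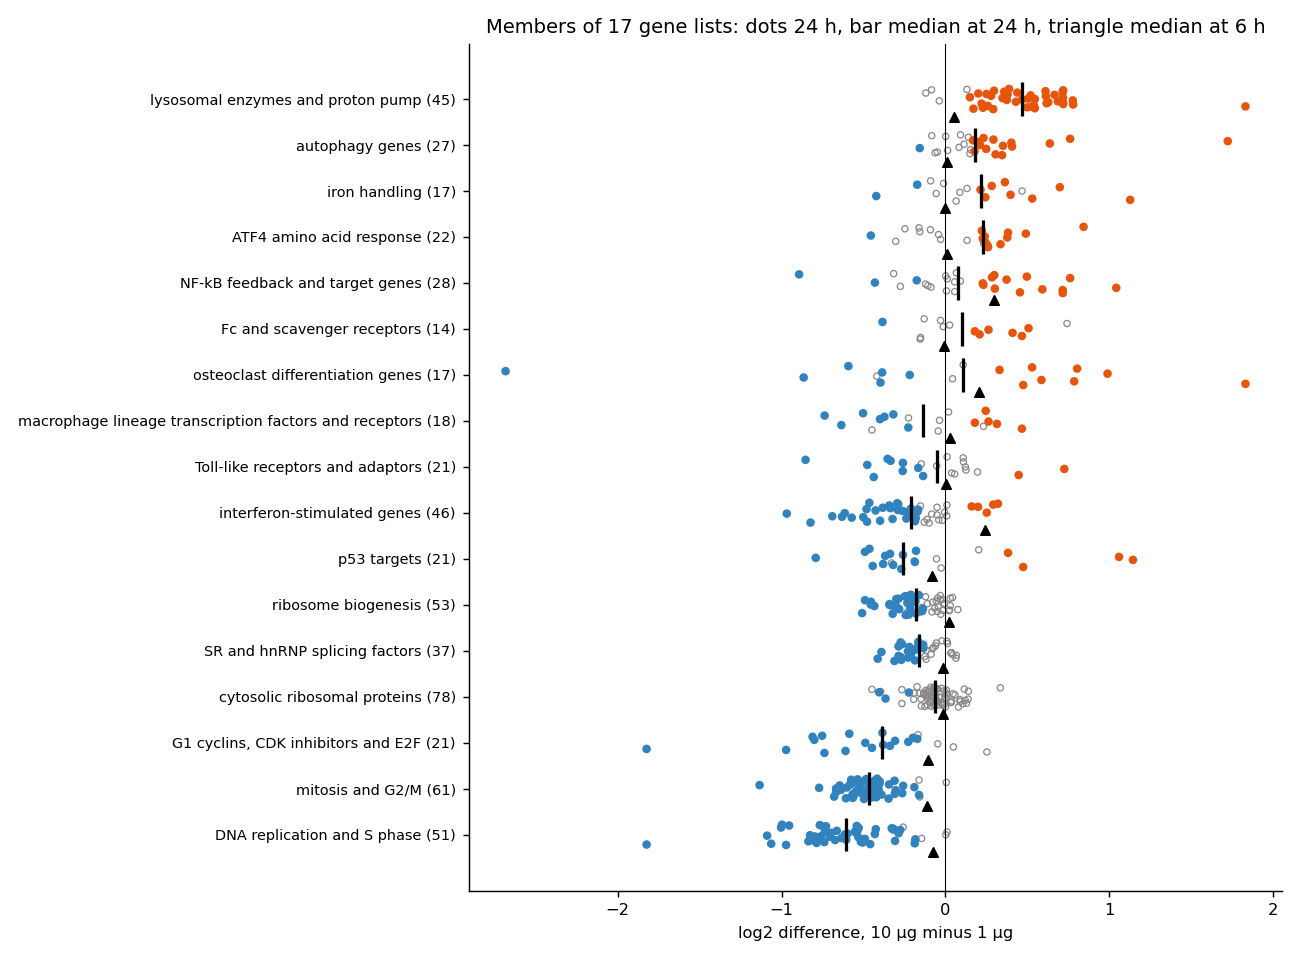
Log2 difference between 10 µg and 1 µg for the members of 17 gene lists (tested members in brackets): filled points were called at 24 h (orange higher, blue lower), open points were not, bars are medians at 24 h and triangles medians at 6 h. Lysosomal members lie almost all right of 0, cell-cycle members almost all left, and the interferon triangle and bar are on opposite sides of 0.

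The dose difference itself changed between 6 h and 24 h. The interaction of dose and time was called for 2307 genes (18.6%), for 940 with the 24 h difference above and for 1367 below that at 6 h, and 2149 of them were among the 4383 genes called at 24 h. Of the 291 genes called at 6 h, 200 were called at 24 h too, 165 in the same direction and 35 in the opposite one. The 165 were 56.7% of the 6 h calls and 3.77% of the 24 h calls. Of the 35, 29 were higher at 6 h and lower at 24 h. Under the naming rule the largest positive interactions were in Tspan10 (2.60), the Golgi stacking gene Gorasp1 (2.15), Dio2 (2.12), the guanylate-binding protein gene Gbp8 (1.68) and Creg2 (1.66). The largest negative ones were in Itsn1 (-4.69), Ranbp3l (-2.85), Ocstamp (-2.55), the heat shock gene Hspa1b (-2.10) and Slc5a3 (-2.05). Gbp8 exons overlap those of Gbp4 and Gbp9, close relatives, so the assignment of its reads is uncertain.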

How the data were processed

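Per the labels' protocols, RNA isolation used TRIzol and RNeasy, and libraries came from the TruSeq stranded mRNA kit. The authors deposited whole-number read counts per gene symbol, 1 column per library, and the submitters' processing notes name the build GRCm39. For the aligner, counting tool, annotation and strand setting, nothing is given in the sources used here, so overlapping genes may share reads. Of 25639 symbols 8141 had no count. All libraries carry 1 batch label.

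Counts were analysed with edgeR 4.0.16 (R 4.3.3): filterByExpr left 12401 genes with 99.97% of counts, libraries were scaled by TMM, and all 15 libraries were fitted together (glmQLFit robust, 10 residual degrees of freedom, common BCV 5.68%) and tested two-sided with glmQLFTest. P-values were adjusted over all tested genes and called under 0.05. CPM use TMM-adjusted library sizes, and the SE is the log2 difference over the square root of F. In simulated data for the 24 h contrast over 12221 genes, 90% of 2-fold and 79% of 1.5-fold changes among 200 were recovered, with 11 false calls. The simulated counts used the fitted spread, shared by all groups, and few changed genes. These shares therefore check the procedure and do not measure recovery in the real libraries.

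The 60 gene lists (53 of functions, 7 of cell markers) were chosen with earlier results of these data known. Of their genes, 92 were in more than 1 functional list. The 6 libraries of the comparison were taken by dose and time label. The naming rule took, by log2 difference, the top 15 called genes in each direction, provided the higher group averaged 5 CPM or more, the groups did not overlap and the symbol was no predicted gene. To these come 5 and 5 by interaction, 16 core activation genes and up to 4 members of each list by smallest p. Other list members are named as examples chosen after their values were seen. RefSeq promoters (GRCm38.p6) matched 9623 tested genes by symbol, and overlaps of exons were read from a GRCm38 annotation, neither on the authors' build. Same-numbered libraries of the 2 doses at 24 h did not deviate together, so replicate number was not used as a block. Alternatives were another fit of the 6 libraries only, a replicate block, RLE and upper-quartile scaling, no filter, DESeq2 1.42.0, limma-voom 3.58.1 and leaving out each library. The text describes part of the genes the rule takes, selected with their values known, and a few list members are not reported here.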

Additional observations from a re-analysis of the deposited data

Results flagged for a closer look

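Dose differences that changed between the times, by the interaction test, were found for 2307 genes. Of 44 genes looked at individually, most were taken for large differences or interactions, so their share is no result beside the 18.6% of all genes. In 36 of the 44 the difference at 24 h minus that at 6 h passed (log2 scale; edgeR's quasi-likelihood test). Above 0 were Dio2 (2.12), Tspan10 (2.60), Sdk2 (1.66), Hal (0.84), Atp6v0d2 (1.57), Hpse (1.52), Celsr1 (1.24), Pakap_3 (1.18), Il7r (1.04), Ccbe1 (0.97), Creg2 (1.66), Tgm2 (1.21), Prss46 (0.99), Rilpl2 (1.14), Gorasp1 (2.15) and Gbp8 (1.68). Below 0 among the largest falls were Itsn1 (-4.69), Ranbp3l (-2.85), Ccne2 (-1.81), Cx3cr1 (-1.98), Trib1 (-1.85), Ighm (-1.89), Slc5a3 (-2.05), Serinc2 (-1.70), Fgd2 (-1.04), Cd300e (-0.80), Dmpk (-1.03), C5ar1 (-1.29), Alox5 (-0.94) and Tex21 (-1.49). Ocstamp (-2.55) and Hspa1b (-2.10) were also below 0. Among core activation genes Tnf (-0.97), Cxcl10 (-1.25), Acod1 (-2.04) and Arg1 (-1.71) were below 0.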

How the results depend on the processing

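The count of genes called at 24 h was 4383 in the reported fit and 3259 with the 6 libraries alone, 4403 with RLE, 4389 with upper-quartile scaling (53.7% of calls higher, against 45.4%), 4184 with no filter, 4149 with DESeq2 and 4469 with limma-voom. With a replicate block it was 4291, of which 4244 were among the 4383; the numbers did not pair the libraries (correlation of deviations over 0.1 in 0 of 3 pairs). Leaving out 1 library gave 3581 to 4458 calls. The 6 h count of 291 was 1044 when fitted without the other 9 libraries and 111 to 163 without 1 library; the cause was not tested. Over the leave-one-out fits at 24 h the difference ranged from -0.3413 to 0.0547 for Tnf, from -1.002 to 0.2513 for Ptgs2 and from -0.865 to 0.2563 for S100a8; in each the highest value, above 0, came without replicate 1 at 1 µg, where none was called. Of 239 single genes over all alternatives, 49 results lost a call and 27 gained one. Depth limits genes of few counts such as Nos2.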

Other observations

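Genes of stress, survival and growth factor signalling moved in both directions at 24 h. Of 21 p53 targets 12 fell and 4 rose at 10 µg, beside 19.3% of all tested genes falling and 16% rising. Gadd45a, a growth arrest gene, rose by 1.15 ± 0.18 and the kinase gene Plk2 by 1.06 ± 0.13, while Zmat3 fell by 0.46 and Trp53 itself by 0.18. The count that fell was 6 when only the 6 libraries were fitted and 7 without replicate 1 at 10 µg. In the BCL2 family the pro-death gene Bmf was at 23.7, 20.8 and 21.96 CPM against 8.48, 10.8 and 10.3 CPM (-1.16 ± 0.10, adjusted p = 1.81e-09), and the survival genes Bcl2l1 and Bcl2 rose by 0.38 and 0.49. Of the Id genes, inhibitors of helix-loop-helix factors, Id2 was at 20.5, 21.98 and 20.5 CPM against 44.0, 43.6 and 42.2 CPM (1.04 ± 0.06), with untreated cells at 143 CPM, while Id3 and Id1 fell by 0.98 and 0.89. Cfp, which encodes the complement regulator properdin, fell by 0.66 ± 0.05, and Hk3, a myeloid hexokinase gene, rose by 0.85 ± 0.05.

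A few genes, named after their values were seen, had counts in 1 group and were listed at 0 in every library of the other. How reads were assigned is not known from the sources, and whether the assignment differed between libraries was not tested. Csrnp1, a nuclear protein gene, had 0 counts in each 1 µg library and 61, 46 and 60 counts at 10 µg. Afmid, whose exons overlap those of Tk1 on the other strand, had 0 counts in each 1 µg library and 76, 135 and 51 at 10 µg. Tapbpl had 0 in each 1 µg library and 32, 0 and 29 at 10 µg, and Yy2 had 18, 14 and 0 at 1 µg and 0 in each 10 µg library. Of 8 tested genes whose fitted log2 difference was over 5 in size, Csrnp1, Afmid and Itsn1 had groups that did not overlap.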
